A study of Homo sapiens with 12 samples.

Results

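The comparison sets MCF10A cells depleted of YAP and TAZ against cells with control siRNA, all of them under XMU-MP1, and covers 6 of the 12 libraries of the series and every gene of the deposited count table. MCF10A is an immortalised, non-tumorigenic human mammary epithelial line, and per the labels all cells were wild type. The 3 libraries of siYT_XMU come from cells that received siRNA sets directed at YAP (gene YAP1) and TAZ (gene WWTR1) at 11 nM, and the 3 libraries of siC_XMU from cells that received control siRNA at 22 nM. Both groups got 5 µM XMU-MP1 at 48 h after transfection and were harvested 6 h later, so the inhibitor is in every library compared. The libraries of each group carry the letters a, b and c. The matching pair without inhibitor, siYT_DMSO and siC_DMSO with 3 libraries each, enters only where the size of the knockdown effect is set beside its size in DMSO. The table lists 46931 genes, of which 18143 had enough counts to be tested.

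In the Hippo pathway, the kinases MST1 (gene STK4) and MST2 (gene STK3) activate LATS1 and LATS2, which phosphorylate YAP and TAZ and keep them out of the nucleus. In the nucleus YAP and TAZ bind TEAD transcription factors and switch on genes of growth and matrix contact, and in stratified epithelia they are known for holding progenitor cells in an undifferentiated state. XMU-MP1 inhibits MST1 and MST2 upstream of LATS1 and LATS2, so the comparison asks what depletion of the coactivators changed while those kinases were inhibited.

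Library c of siYT_XMU stood apart. It held 8243351 counts, against 37044804 and 60832492 in siYT_XMU a and b and between 46901372 and 57817609 in siC_XMU, and a count of 0 in it allows up to 0.622 CPM (counts scaled to the size of the library). Ribosomal RNA took 5.38, 2.65 and 35.0% of counts in siYT_XMU a, b and c, against 2.52, 1.21 and 1.02% in siC_XMU. Most of it was mitochondrial, at 4.09, 2.36 and 26.4% of counts in siYT_XMU and 1.97, 1.06 and 0.916% in siC_XMU. The gene SLCO5A1, named after its values were seen, took 2.77, 0.490 and 12.6% in siYT_XMU, against 0.259 to 1.22% in siC_XMU. The log2 CPM of library c correlated with those of a and b across genes at r = 0.856 and 0.852, against 0.934 between a and b and 0.956 to 0.963 among siC_XMU. These correlations run across genes, which are not independent replicates. The counts of list members below are therefore also given without library c, and counts that the loss of another library moved by over 1.5 times are given with that value.

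Genes were tested with edgeR's quasi-likelihood test on the counts and are called, or said to have risen or fallen, where the Benjamini-Hochberg adjusted p over all tested genes was under 0.05. Log2 fold changes are siYT_XMU over siC_XMU and come with their standard error (SE). Of the 18143 tested genes 3219 rose (17.7%) and 3381 fell (18.6%), and 2555 of the risen and 2429 of the fallen genes changed at least 2-fold. The shares of 17.7 and 18.6% are the background for every list count below. The large fitted changes were mostly upward, with 1204 genes at least 8-fold higher and 459 at least 8-fold lower, and 729 at least 32-fold higher against 130 at least 32-fold lower. Where a whole group stood at 0, the fitted size depends on the prior count, a small count that the fit adds. All siC_XMU libraries stood at 0 in 656 tested genes and all siYT_XMU libraries in 407. A count of 0 allows up to 0.622 CPM in siYT_XMU c, but at most 0.0601 CPM in siC_XMU. The part of these limits in the imbalance was not tested. Without library c, 19211 genes could be tested, of which 3710 rose (19.3%) and 3602 fell (18.7%), 38.1% in all. All siYT_XMU libraries lay above all siC_XMU libraries in 3563 genes (19.6%) and below them in 4705 (25.9%), whether called or not. Of the called genes of the full comparison, 2886 risen and 3128 fallen ones were also called in the same direction without it. Whether the libraries of a group came from separate cultures is not stated, and the p-values then speak only of the spread among these libraries, which may be technical. In bulk RNA, fewer cells of a kind and less RNA per cell cannot be told apart.

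Transcripts of both targeted genes, YAP1 and WWTR1, were low in every siYT_XMU library. YAP1 (chr11:102109957-102233424, plus strand, GRCh38.p13) stood at 6.63, 3.81 and 5.39 CPM in siYT_XMU a, b and c, against 132, 135 and 142 CPM in siC_XMU (log2 fold change -4.70, SE 0.25, adjusted p = 9.29e-07). WWTR1 (chr3:149517229-149724788, minus strand) stood at 2.11, 1.24 and 0 CPM in siYT_XMU, against 56.9, 60.3 and 56.0 CPM in siC_XMU (-5.43, SE 0.54, adjusted p = 2.31e-05). For both genes the groups lay far apart. A permutation test over libraries (exact, two-sided) gave p = 0.1 for each, and 3 against 3 libraries can go no lower. TP63, the gene of the epithelial transcription factor p63, stood at 3.58, 3.25 and 12.4 CPM in siYT_XMU, against 3.03, 4.17 and 2.22 CPM in siC_XMU (0.95, SE 0.50, adjusted p = 0.155; exact permutation p = 0.4). Libraries a and b lay within the range of siC_XMU and library c above it, and without library c the log2 fold change was 0.12 (adjusted p = 0.827). The table has 1 row for TP63 and does not resolve its TA and deltaN isoforms.

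Among classical YAP and TAZ target genes, falls outnumbered rises. Of 29 tested members of a list of targets, 15 fell, 2 rose and 12 did not pass, with a median log2 fold change of -1.02 against 0.04 over all tested genes, and 18 fell and 2 rose without library c. CCN2 (connective tissue growth factor), the most widely used readout of YAP activity, stood at 0.968, 6.94 and 18.02 CPM in siYT_XMU, against 51.5, 219 and 261 CPM in siC_XMU (-4.49, SE 0.88, adjusted p = 0.00212). CCN2 varied widely within both groups, but every siYT_XMU library lay below every siC_XMU library. CCN1, the related matrix protein CYR61, stood at 11.0, 63.05 and 42.5 CPM in siYT_XMU, against 125, 229 and 276 CPM in siC_XMU (-2.44, SE 0.53, adjusted p = 0.00403). AMOTL2, a junction protein that binds YAP, stood at 5.58, 4.12 and 10.4 CPM in siYT_XMU, against 83.7, 89.4 and 141 CPM in siC_XMU (-4.05, SE 0.39, adjusted p = 2.01e-05). AJUBA, a LIM protein that restrains LATS kinases, was at 5.11, 2.88 and 1.66 CPM in siYT_XMU, against 35.8, 95.3 and 100 CPM in siC_XMU (-4.49, SE 0.44, adjusted p = 2.22e-05). FOXF2, a forkhead factor, was low in both groups, at no more than 0.352 CPM in siYT_XMU, against 2.87 to 5.23 CPM in siC_XMU (-4.34, SE 0.61, adjusted p = 0.000225).

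One of the risen targets was CCND1, which is named here after its values were seen. CCND1, cyclin D1, stood at 98.9, 102 and 167 CPM in siYT_XMU, against 55.1, 37.2 and 52.3 CPM in siC_XMU (1.34, SE 0.28, adjusted p = 0.00289). All siYT_XMU libraries lay above all siC_XMU libraries. In DMSO the same knockdown gave a log2 fold change of -1.07 (adjusted p = 0.011), and the difference between the knockdown effects passed the test (interaction 2.41, SE 0.39, adjusted p = 0.0137).

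**Figure D1:**
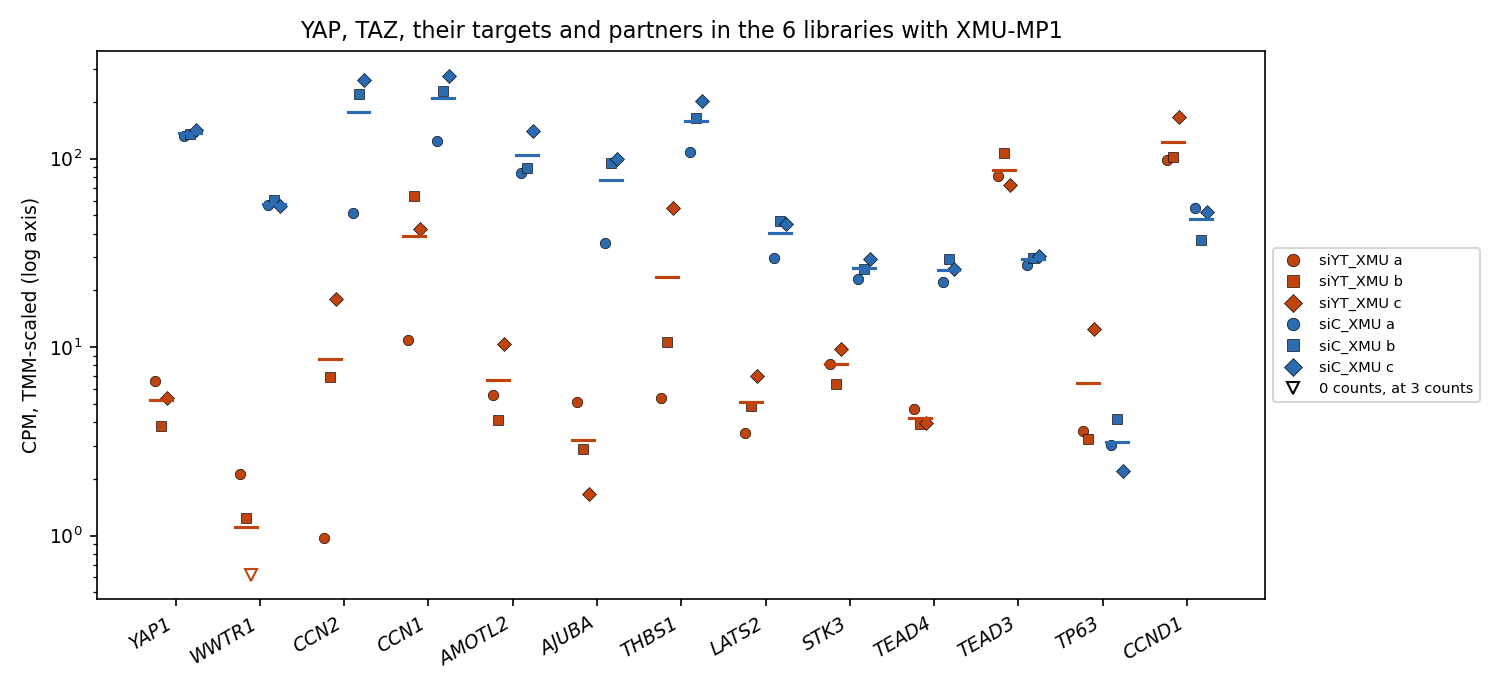
CPM with TMM scaling (log axis) of YAP1, WWTR1, target and pathway genes in each library, siYT_XMU in red and siC_XMU in blue, with circles, squares and diamonds for libraries a, b and c and bars for group means; the open triangle is the count of 0 of WWTR1, drawn at 3 counts. YAP1, WWTR1, CCN1, CCN2 and AJUBA are lower in every siYT_XMU library, TEAD3 and CCND1 are higher, and TP63 overlaps.

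The promoter of CCN2 shows the letters through which TEAD factors are known to bind. A window from 250 bases before to 50 after the start of each gene was read from RefSeq (GRCh38.p14), and 12513 of the 18143 tested genes had one. GGAATG, the TEAD core motif, was sought on both strands. The promoter of CCN2 (chr6:131951323-131951622, minus strand), chosen by name, is printed below. It holds 3 copies, in capitals, at 169, 104 and 95 bases before the start.
CCN2: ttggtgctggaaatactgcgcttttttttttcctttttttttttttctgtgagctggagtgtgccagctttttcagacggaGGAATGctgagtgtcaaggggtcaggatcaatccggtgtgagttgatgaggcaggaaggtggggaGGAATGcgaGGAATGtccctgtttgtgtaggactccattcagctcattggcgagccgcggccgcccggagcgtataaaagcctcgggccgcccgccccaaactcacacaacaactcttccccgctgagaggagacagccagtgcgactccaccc
Of the 19 tested YAP and TAZ targets with a promoter in the table, 8 held GGAATG (42.1%), against 1414 of all 12513 (11.3%). The motif stood in 10.9% of the promoters of risen genes and in 10.5% of those of fallen genes. A match of letters is a description and does not show binding.

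Among the Hippo kinases and their adaptors, 11 of 29 tested genes fell and 4 rose (median -0.69), and 13 fell and 4 rose of 30 tested without library c. LATS2, the kinase that is itself a YAP target, stood at 3.52, 4.85 and 7.04 CPM in siYT_XMU, against 29.7, 46.8 and 44.8 CPM in siC_XMU (-3.02, SE 0.28, adjusted p = 1.61e-05). STK3, the gene of MST2, stood at 8.16, 6.40 and 9.74 CPM in siYT_XMU, against 23.1, 26.1 and 29.4 CPM in siC_XMU (-1.71, SE 0.22, adjusted p = 0.000114). Both genes fell without overlap of the groups. STK4, the gene of MST1, gave -0.48 (SE 0.29, adjusted p = 0.214). LATS1 stood at 14.1, 9.82 and 38.3 CPM in siYT_XMU, against 39.6, 32.8 and 39.9 CPM in siC_XMU, and its call turned on library c, with a log2 fold change of -0.89 (adjusted p = 0.102) with it and of -1.66 (adjusted p = 0.000342) without it. FRMD6 (willin; -1.99, adjusted p = 3.26e-05) and WWC2 (a KIBRA family protein; -1.81, adjusted p = 7.5e-05), upstream regulators of the kinases, fell too. The 4 risen members were the kinases MAP4K4, MINK1 and TNIK and the protocadherin FAT2, named after their values were seen.

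Of 7 nuclear partners of YAP and TAZ, TEAD1, TEAD4 and VGLL3 fell and TEAD3 rose, and 4 fell and 1 rose without library c. TEAD4 stood at 4.70, 3.92 and 3.94 CPM in siYT_XMU, against 22.2, 29.2 and 25.9 CPM in siC_XMU (-2.61, SE 0.33, adjusted p = 0.000108). TEAD3 stood at 81.0, 108 and 72.9 CPM in siYT_XMU, against 27.5, 29.7 and 30.5 CPM in siC_XMU (1.58, SE 0.17, adjusted p = 4.03e-05). The paralogues thus moved in opposite directions, with TEAD1, which had 41.5, 35.8 and 57.0 CPM in siYT_XMU and 104, 123 and 148 CPM in siC_XMU, on the falling side (-1.49, SE 0.21, adjusted p = 0.000198). VGLL3, a vestigial-like cofactor of TEAD factors, gave -2.39 (SE 0.49, adjusted p = 0.00267).

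Genes of the outer, cornifying epidermis rose together. Of 100 tested members of 5 lists (cornified envelope, S100 proteins, barrier lipids, proteases with their inhibitors, and suprabasal keratins with desmosomal cadherins), 90 rose and 0 fell. Without library c, 90 rose and 0 fell out of more tested members, since 26 rather than 24 proteases and inhibitors could be tested. The background is 17.7% of genes risen. Their summed share of the TMM-scaled CPM was 7.41, 8.04 and 5.19% in siYT_XMU a, b and c, against 0.649, 0.625 and 0.465% in siC_XMU. List members with too few counts were not tested and are not among the 100. For 16 of the 100 genes all siC_XMU libraries stood at 0. Those 16 passed the count filter through other groups, so here they could rise or not pass, but not fall. A fitted log2 fold change of such a gene depends on the prior count of the fit and is no measure of size, so their size is given as at least the mean siYT_XMU level over the level of 3 counts per library in siC_XMU. The median log2 fold change of the 100 genes was 6.19, or 5.41 with those 16 at their bound, against 0.04 and 0.06 over all genes. The share of ribosomal RNA was also higher in every siYT_XMU library (2.65 to 35.0%) than in siC_XMU (1.02 to 2.52%), and its part in these changes was not tested.

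The cornified envelope is the cross-linked protein shell that replaces the membrane of dying keratinocytes. Of its 28 tested genes 26 rose and 0 fell, and 25 rose without library c. SPRR1B, a small proline-rich envelope precursor, stood at 2763, 3212 and 3154 CPM in siYT_XMU, against 13.1, 12.01 and 6.22 CPM in siC_XMU (8.19, SE 0.39, adjusted p = 5.13e-07). The neighbouring SPRR1A stood at 1971, 3007 and 1595 CPM in siYT_XMU, against 4.91, 3.59 and 2.20 CPM in siC_XMU (9.27, SE 0.49, adjusted p = 9.29e-07). The levels of both genes were thus more than 2 orders apart, with little spread among the siYT_XMU libraries. CNFN, cornifelin, stood at 320, 951 and 661 CPM in siYT_XMU, against 1.92, 2.21 and 1.14 CPM in siC_XMU (8.52, SE 0.55, adjusted p = 1.81e-06). EVPL, the plakin envoplakin, stood at 176, 222 and 142 CPM in siYT_XMU and was already present in siC_XMU, at 18.3, 18.8 and 20.9 CPM (3.22, SE 0.20, adjusted p = 1.67e-06).

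AP-1 factors, the dimers of Fos and Jun proteins, are known to drive genes of this kind. Their motif TGANTCA, sought on both strands, stood in the promoters of 10 of 22 cornified envelope genes (45.5%), against 677 of 12513 (5.41%) over all tested genes. GGAATG was also in 10 of these 22 (45.5%). The promoter of SPRR1B (chr1:153030953-153031252, plus strand, GRCh38.p14) is shown as the member with the smallest adjusted p that holds the motif, with TGANTCA in capitals at 141 and 111 bases before the start. It also holds 1 GGAATG at 90 bases before the start, left in lower case.
SPRR1B: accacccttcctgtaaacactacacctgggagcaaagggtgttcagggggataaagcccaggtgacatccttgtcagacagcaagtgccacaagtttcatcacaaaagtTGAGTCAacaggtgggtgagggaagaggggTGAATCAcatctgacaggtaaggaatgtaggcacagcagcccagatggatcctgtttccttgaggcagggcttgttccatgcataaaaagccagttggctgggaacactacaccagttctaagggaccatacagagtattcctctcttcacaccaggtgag
TGANTCA was in 8.17% of the promoters of risen genes and in 3.95% of those of fallen genes.

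S100 proteins are small calcium-binding proteins. In a list of those made by activated and differentiating keratinocytes, 8 of 9 tested genes rose, and 9 of 9 without library c. Outside the list, S100A4, S100A6 and S100A11 rose, while S100A1, S100A3, S100A5 and S100A10 did not pass. These are named after their values were seen. S100A7 (psoriasin) stood at 4030, 6082 and 3484 CPM in siYT_XMU, against 21.2, 15.5 and 9.44 CPM in siC_XMU (8.20, SE 0.44, adjusted p = 9.31e-07). S100A8 and S100A9, which together form calprotectin, gave log2 fold changes of 7.04 (SE 0.47, adjusted p = 1.9e-06) and 5.87 (SE 0.40, adjusted p = 1.94e-06). S100A9 reached 6501, 9415 and 4767 CPM in siYT_XMU, against 140, 140 and 73.5 CPM in siC_XMU. S100A7A, a close copy of S100A7, gave 7.64 (SE 0.58, adjusted p = 3.73e-06). The sources used here do not describe the treatment of reads shared by such copies, so the split between them is uncertain.

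Genes that build the lipid barrier rose in 22 of 26 tested cases and fell in 0, with and without library c. SULT2B1, which sulphates cholesterol, stood at 359, 539 and 283 CPM in siYT_XMU, against 1.76, 0.941 and 0.926 CPM in siC_XMU (8.35, SE 0.48, adjusted p = 1.25e-06). ABCA12, the lipid transporter of lamellar granules, stood at 353, 552 and 623 CPM in siYT_XMU, against 11.3, 11.7 and 5.48 CPM in siC_XMU (5.75, SE 0.38, adjusted p = 1.85e-06). ALOX15B, a lipoxygenase, gave 6.32 (SE 0.38, adjusted p = 1.28e-06) and LIPK, an acid lipase of the epidermis, 7.99 (SE 0.69, adjusted p = 9.53e-06). CERS3, the ceramide synthase of ultra-long fatty acids, was at 27.8, 49.7 and 69.4 CPM in siYT_XMU and at 0 in every siC_XMU library, at least 930-fold higher (adjusted p = 2.21e-05). CYP4F22, the fatty acid hydroxylase that acts in the same route, was at 17.1, 35.7 and 23.4 CPM in siYT_XMU and at 0 in siC_XMU, at least 483-fold higher (adjusted p = 2.09e-05).

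Proteases of the stratum corneum and their inhibitors rose in 22 of 24 tested cases and fell in 0, and rose in 21 of 26 without library c. The kallikreins, serine proteases that loosen the outermost cells, were represented by KLK6 with 850, 1020 and 437 CPM in siYT_XMU, against 2.87, 3.42 and 1.32 CPM in siC_XMU (8.25, SE 0.59, adjusted p = 2.54e-06). KLK9 gave 8.05 (SE 0.67, adjusted p = 7.46e-06). Among inhibitors, A2ML1, which resembles alpha-2-macroglobulin, stood at 477, 591 and 546 CPM in siYT_XMU, against 3.09, 2.42 and 0.789 CPM in siC_XMU (8.01, SE 0.53, adjusted p = 1.81e-06). CSTA, cystatin A, stood at 523, 754 and 387 CPM in siYT_XMU, against 44.3, 46.3 and 37.1 CPM in siC_XMU (3.70, SE 0.26, adjusted p = 2.34e-06). Enzymes and inhibitors thus rose side by side.

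Suprabasal and stress keratins mostly rose, while the basal keratins and hemidesmosome genes mostly did not pass the test. Of 13 tested suprabasal keratins and desmosomal cadherins 12 rose, and all 13 without library c. KRT16, a keratin of hyperproliferative and wounded epidermis, stood at 1982, 2070 and 1074 CPM in siYT_XMU, against 29.6, 22.7 and 11.3 CPM in siC_XMU (6.34, SE 0.60, adjusted p = 1.72e-05), and KRT6B, a keratin made with it, gave 5.74 (SE 0.49, adjusted p = 8.85e-06). KRT80, a keratin tied to desmosomes, stood at 280, 526 and 260 CPM in siYT_XMU, against 9.46, 9.24 and 11.5 CPM in siC_XMU (5.14, SE 0.34, adjusted p = 1.81e-06). DSC2, a desmosomal cadherin, stood at 376, 520 and 1209 CPM in siYT_XMU, against 36.8, 38.0 and 19.3 CPM in siC_XMU (4.48, SE 0.43, adjusted p = 1.82e-05), or a log2 fold change of 3.83 without library c. KRT5, the basal keratin, stood at 2955, 2224 and 2073 CPM in siYT_XMU, against 4522, 4910 and 3581 CPM in siC_XMU (-0.84, SE 0.29, adjusted p = 0.0377), a call that was lost without library c (-0.75, adjusted p = 0.0803). Of 21 tested basal and hemidesmosome genes 18 did not pass, 2 fell and 1 rose. Without library c 3 fell and 1 rose, 1 fell without siC_XMU a, siC_XMU b or siYT_XMU b, and 2 rose without siYT_XMU b. KRT15, also a basal keratin, rose (3.47, SE 0.88, adjusted p = 0.00933), and CAV1, the membrane protein caveolin, fell (-2.73, SE 0.27, adjusted p = 2.11e-05).

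p63 targets moved both ways. Of 33 tested members of a list of p63 targets, 13 rose and 4 fell (median 0.25), likewise without library c, and 2 fell without siC_XMU a or without siC_XMU b. The leading risen members were CSTA, PKP1, TRIM29 and DSP, which are envelope, desmosome and keratinocyte genes. DSP, desmoplakin, stood at 1026, 1109 and 1171 CPM in siYT_XMU, against 303, 334 and 285 CPM in siC_XMU (1.84, SE 0.18, adjusted p = 2.14e-05). TRIM29, an epithelial tripartite motif protein, gave 3.16 (SE 0.29, adjusted p = 1.39e-05). PKP1, a plakophilin, was at 2.93, 5.10 and 3.52 CPM in siYT_XMU and at 0 in siC_XMU, at least 73.2-fold higher (adjusted p = 6.12e-05). The integrin and laminin members ITGA6, ITGB4, LAMA3 and LAMB3, named after their values were seen, did not pass the test, with log2 fold changes between -0.11 and 0.69.

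Transcription factors of epidermal differentiation rose in 13 of 23 tested cases and fell in 3, with and without library c. OVOL1, a zinc finger factor of differentiating keratinocytes, stood at 295, 532 and 152 CPM in siYT_XMU, against 10.6, 6.54 and 3.08 CPM in siC_XMU (5.60, SE 0.61, adjusted p = 3.99e-05). GRHL3, a grainyhead factor needed for the barrier, was at 9.71, 11.3 and 7.87 CPM in siYT_XMU, against 2.29, 1.22 and 1.17 CPM in siC_XMU (2.65, SE 0.34, adjusted p = 0.000129). HOPX, a homeodomain protein without DNA binding, was at 14.8, 41.8 and 57.2 CPM in siYT_XMU and at 0, 0 and 0.121 CPM in siC_XMU (adjusted p = 0.000191). BARX2, a homeobox factor, gave 3.52 (SE 0.49, adjusted p = 0.0002). The 3 fallen members, named after their values were seen, were OVOL2, GATA3 and TFAP2A.

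The epidermal genes lie in clusters. In the epidermal differentiation complex (chr1:151982915-153632039, GRCh38.p13, from S100A10 to S100A1), 31 of 46 tested genes rose and 0 fell, and 30 rose and 1 fell without library c. In the kallikrein cluster on chromosome 19, 10 of 11 tested genes rose, in the cytosolic phospholipase A2 cluster on chromosome 15, 6 of 7, and in the WFDC cluster of small protease inhibitors on chromosome 20, 14 of 21, with 0 fallen in each, and 11, 6 and 11 rose without library c. The type I keratin cluster on chromosome 17 had 8 risen and 0 fallen of 13 tested genes (10 and 0 without library c), and the type II cluster on chromosome 12 had 10 risen and 3 fallen of 19 (11 and 2 without library c). Each share lies above the background of 17.7%, but the clusters were chosen with these results known, and genes within a cluster are not independent. The shares also cover tested genes only. The deposited table holds 81 genes of the epidermal differentiation complex, 20 of the kallikrein, 11 of the phospholipase and 40 of the WFDC cluster. It holds 67 of the type I and 40 of the type II keratin cluster. Of the tested genes 10, 2, 2, 4, 3 and 1, in this order, were at 0 in every siC_XMU library. Those could not fall in this comparison.

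**Figure D2:**
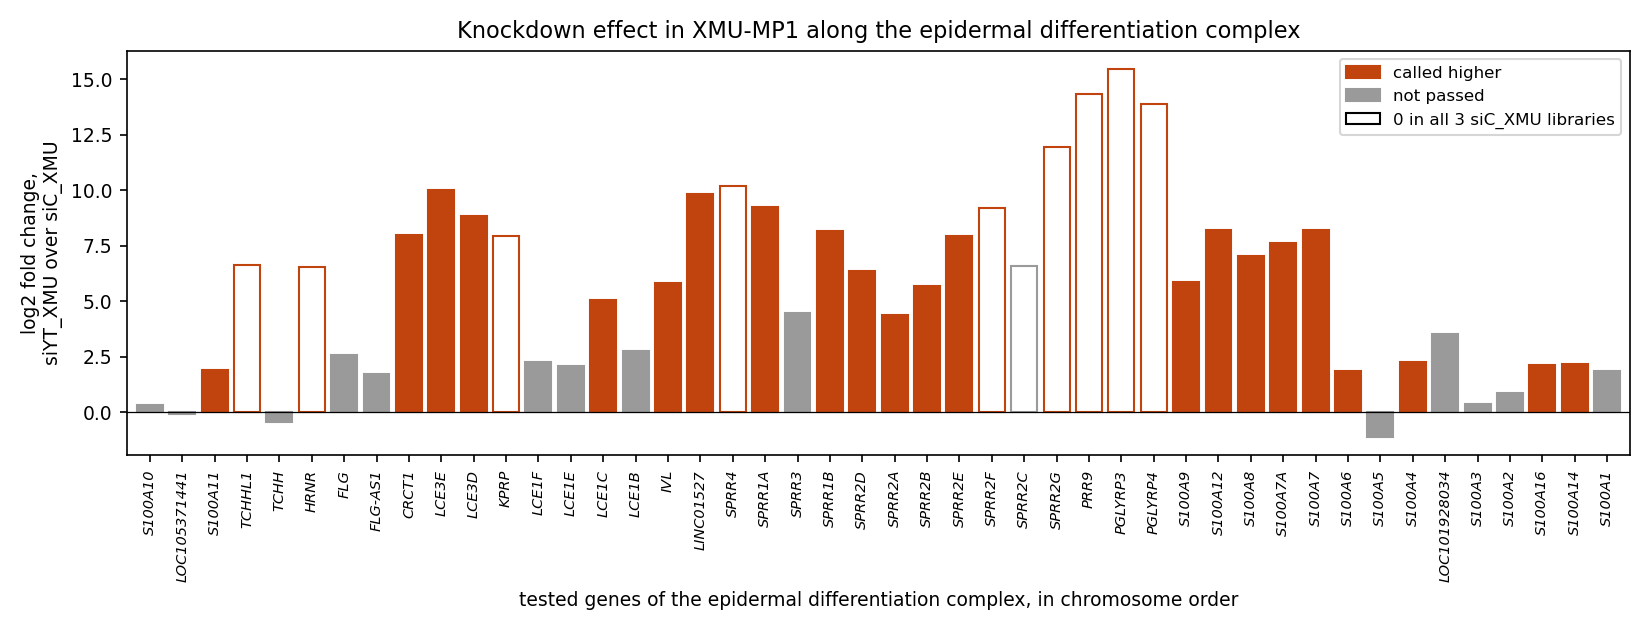
Fitted log2 fold change, siYT_XMU over siC_XMU, of the 46 tested genes of the epidermal differentiation complex in chromosome order, called higher in red and not passed in grey; open bars mark genes at 0 in every siC_XMU library, whose height depends on the prior count. The 31 red bars are most frequent between CRCT1 and S100A7, and the 3 tallest, PGLYRP3, PRR9 and PGLYRP4, are open.

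The 8 largest upward changes by the naming rule were all of genes at 0 in every siC_XMU library. PGLYRP3, a peptidoglycan recognition protein of the epidermal differentiation complex, was at 84.3, 129 and 117 CPM in siYT_XMU, at least 2092-fold higher (adjusted p = 1.81e-06), and its neighbour PGLYRP4 at 32.9, 45.9 and 33.8 CPM, at least 712-fold (adjusted p = 2.2e-05). PRR9, a proline-rich protein of the same complex, was at 4.67, 87.0 and 61.1 CPM, at least 968-fold (adjusted p = 0.001). MMP1, the interstitial collagenase, was at 49.5, 11.0 and 56.1 CPM, at least 738-fold (adjusted p = 0.000141). PLA2G2F, a secreted epidermal phospholipase, was at least 372-fold higher (adjusted p = 5.54e-05) and WFDC5, a protease inhibitor, at least 378-fold (adjusted p = 0.00104). CERS3 and CYP4F22 make up the 8. These bounds cover counting error only, and a count of 0 need not mean absence, since the counting step is not described in the sources used here.

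Cell cycle genes fell as a block. All 39 tested genes of G1/S and DNA replication fell, with a median log2 fold change of -3.23, all 42 of G2/M and mitosis, with a median of -3.77, and all 24 of homologous recombination and Fanconi repair, with a median of -3.43, against a background of 18.6% fallen. Without library c all 39, all 42 and 23 of the 24 fell. The summed CPM of the G2/M genes was 1121, 645 and 654 in siYT_XMU, against 7919, 8038 and 8909 in siC_XMU.

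In replication, FEN1, the flap endonuclease that trims Okazaki fragments, stood at 31.8, 21.2 and 22.8 CPM in siYT_XMU, against 246, 254 and 260 CPM in siC_XMU (-3.32, SE 0.19, adjusted p = 1.25e-06). RFC5 (a clamp loader subunit; -3.09, SE 0.20), ORC6 (a part of the origin recognition complex; -3.23, SE 0.21) and MCM4 (a part of the replicative helicase; -2.30, SE 0.17) fell likewise, with adjusted p of at most 3.73e-06. RRM2, the ribonucleotide reductase subunit that makes DNA precursors, stood at 59.2, 13.2 and 19.3 CPM in siYT_XMU, against 994, 1040 and 1135 CPM in siC_XMU (-5.10, SE 0.63, adjusted p = 9.9e-05). The promoter of PCNA, the replication clamp (-2.81, SE 0.22, adjusted p = 5.22e-06), is printed as a called member that holds an E2F motif. The choice passed over part of the list, so a member of smaller adjusted p may hold such a motif too. E2F factors are known to drive S phase genes through sites such as TTTCCCGC, printed in capitals on the other strand (GCGGGAAA), which begins 59 bases before the start (chr20:5126573-5126872, minus strand, GRCh38.p14).
PCNA: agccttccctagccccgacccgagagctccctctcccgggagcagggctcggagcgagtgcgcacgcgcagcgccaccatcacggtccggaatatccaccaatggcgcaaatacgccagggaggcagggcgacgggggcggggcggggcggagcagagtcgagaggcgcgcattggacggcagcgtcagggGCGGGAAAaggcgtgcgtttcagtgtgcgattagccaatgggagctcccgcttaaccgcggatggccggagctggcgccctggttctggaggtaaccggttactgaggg
TTTCCCGC, sought on both strands, was in 11 of 34 promoters of the replication list (32.4%) against 2.45% of all, and TTTGGCGC, another E2F site, in 8 (23.5%) against 1.04%.

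In mitosis, KIF20A, a kinesin of the cleavage furrow, stood at 21.1, 10.7 and 13.5 CPM in siYT_XMU, against 295, 369 and 385 CPM in siC_XMU (-4.53, SE 0.37, adjusted p = 5.97e-06). TPX2 (a spindle assembly factor; -3.47, SE 0.29, adjusted p = 7.08e-06) and NUSAP1 (a spindle protein; -3.03, SE 0.29, adjusted p = 1.82e-05) fell too. KIF14, a kinesin of cytokinesis, stood at 2.85, 0.986 and 2.07 CPM in siYT_XMU, against 40.3, 27.97 and 36.8 CPM in siC_XMU (-4.17, SE 0.37, adjusted p = 1.18e-05). Mitotic genes are known to be held off outside G2 through the CHR element TTTGAA and switched on through NF-Y at CCAAT boxes. The promoter of KIF14 (chr1:200620702-200621001, minus strand, GRCh38.p14) is shown because it holds both, in capitals, with CCAAT at 22 bases before the start and TTTGAA, on the other strand as TTCAAA, at 1 base after it.
KIF14: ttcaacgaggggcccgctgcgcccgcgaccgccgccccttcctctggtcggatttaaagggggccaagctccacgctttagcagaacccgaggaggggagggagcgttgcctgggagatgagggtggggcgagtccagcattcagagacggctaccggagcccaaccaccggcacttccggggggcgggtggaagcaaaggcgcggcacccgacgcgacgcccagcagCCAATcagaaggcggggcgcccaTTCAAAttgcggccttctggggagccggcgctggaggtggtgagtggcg
Of 35 mitotic promoters in the table, 23 held TTTGAA (65.7%) against 10.2% of all, and 26 held CCAAT (74.3%) against 36.1%. No motif here can be tied to a factor from these data.

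Among repair genes, BRCA1 stood at 4.11, 1.45 and 2.90 CPM in siYT_XMU, against 26.6, 21.4 and 37.0 CPM in siC_XMU (-3.34, SE 0.36, adjusted p = 4.15e-05). FANCG and FANCI, parts of the Fanconi pathway of crosslink repair, gave -3.53 (SE 0.36) and -2.84 (SE 0.30), and RBBP8, which starts the resection of breaks, -2.01 (SE 0.19), with adjusted p of at most 3.21e-05. Of 13 tested D-type cyclins, their kinases, inhibitors and pocket proteins, 3 rose and 4 fell, and 4 rose and 5 fell without library c. The background is 17.7% risen and 18.6% fallen. CDKN1A, the inhibitor p21, stood at 3228, 3785 and 2299 CPM in siYT_XMU, against 1236, 1025 and 577 CPM in siC_XMU (1.71, SE 0.29, adjusted p = 0.000804). CDKN2C (the inhibitor p18; -3.90, SE 0.33), RBL1 (the pocket protein p107; -3.78, SE 0.47) and CDK4 (a kinase that partners D cyclins; -1.13, SE 0.22) fell, with adjusted p of at most 0.0022. p21 thus moved against the other called inhibitors, since CDKN1B (p27), named after its values were seen, also fell (-0.78, adjusted p = 0.00629).

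Of 31 tested histone genes 11 rose and 0 fell, although genes of DNA replication fell. Without library c 10 rose and 0 fell, and 1 fell without siC_XMU a or without siYT_XMU a. H2BC8 stood at 193, 136 and 102 CPM in siYT_XMU, against 5.77, 12.8 and 7.66 CPM in siC_XMU (4.04, SE 0.46, adjusted p = 5.91e-05), and H2BC4 at 147, 99.0 and 122 CPM in siYT_XMU, against 20.3, 23.6 and 21.2 CPM in siC_XMU (2.50, SE 0.24, adjusted p = 1.83e-05). H2AC8 gave 3.80 (SE 0.44) and H2BC21 2.97 (SE 0.39), with adjusted p of at most 0.000137. The libraries were made from polyadenylated RNA, while replication-dependent histone transcripts mostly end without a poly(A) tail. How many of the counted histone transcripts had a tail was not tested. Near-identical histone copies share reads, so the values of single genes are uncertain.

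Of 33 tested genes of the list of MYC and ribosome biogenesis 18 fell, 0 rose and 15 did not pass (median -0.91), and 19 fell without library c. MYC itself stood at 12.7, 12.4 and 17.8 CPM in siYT_XMU, against 57.1, 70.5 and 74.7 CPM in siC_XMU (-2.26, SE 0.19, adjusted p = 9.54e-06). NOP58, a core protein of box C/D particles that modify ribosomal RNA, stood at 13.7, 9.73 and 17.6 CPM in siYT_XMU, against 121, 82.6 and 109 CPM in siC_XMU (-2.95, SE 0.24, adjusted p = 7.02e-06). NPM1 (nucleophosmin; -1.32, SE 0.17) and NOP2 (a ribosomal RNA methyltransferase; -1.08, SE 0.15) fell by less, with adjusted p of at most 0.000169. In the list of ATF4 targets and unfolded protein response, 15 of 26 tested genes fell and 1 rose (median -0.70), likewise without library c, and 9 fell in a fit to the 6 libraries with XMU-MP1 alone. ASNS, asparagine synthetase, stood at 53.8, 32.7 and 19.5 CPM in siYT_XMU, against 715, 613 and 448 CPM in siC_XMU (-4.05, SE 0.50, adjusted p = 9.57e-05). PHGDH and PSAT1, which make serine, gave -2.38 (SE 0.30) and -2.60 (SE 0.33), and XBP1, a transcription factor of the unfolded protein response, -2.36 (SE 0.36), with adjusted p of at most 0.000385.

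Matrix genes fell more often than they rose. Of 32 tested collagens, laminins and other matrix genes 11 fell and 5 rose, and 14 fell and 5 rose of 33 without library c, while 3 rose without siC_XMU a. Their summed CPM was 1794, 1716 and 4079 in siYT_XMU a, b and c, against 3440, 4919 and 5637 in siC_XMU, so libraries a and b lay below every siC_XMU library and library c lay among them. FBN2, a fibrillin, stood at 13.1, 12.7 and 15.3 CPM in siYT_XMU, against 122, 155 and 164 CPM in siC_XMU (-3.43, SE 0.25, adjusted p = 2.55e-06). COL12A1, a collagen that decorates fibrils, gave -4.26 (SE 0.50, adjusted p = 6.67e-05). COL4A1 and COL4A2, the paired chains of basement membrane collagen, gave -3.47 (SE 0.44) and -2.96 (SE 0.38), with adjusted p of 0.000119 and 0.000118, and log2 fold changes of -4.04 and -3.45 without library c.

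In TGF-beta signalling 8 of 24 tested genes fell and 2 rose, and 6 fell and 2 rose without library c, while 5 fell without siC_XMU b. TGFBR2, the type II receptor, stood at 15.7, 8.70 and 19.9 CPM in siYT_XMU, against 99.3, 127 and 144 CPM in siC_XMU (-3.09, SE 0.28, adjusted p = 1.24e-05). SMAD4, the shared signal transducer, gave -1.35 (SE 0.19, adjusted p = 0.000224), the co-receptor TGFBR3 -2.13 (SE 0.41, adjusted p = 0.00188), and TGFBI, a matrix protein induced by the pathway, -1.92 (SE 0.46, adjusted p = 0.00632). Of 23 tested SRF targets and actin genes 7 fell and 1 rose, and 9 fell and 3 rose without library c. CNN2 (calponin; -1.40, SE 0.15), ACTN1 (alpha-actinin; -1.43, SE 0.25) and ZYX (zyxin; -0.97, SE 0.14) fell, with adjusted p of at most 0.00108, and CALD1 (caldesmon) rose (0.83, SE 0.15, adjusted p = 0.00122).

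Genes of mesenchymal transition moved both ways, with 5 risen and 4 fallen of 19 tested, and 5 risen and 6 fallen without library c. The full counts lie near the background of 17.7% risen and 18.6% fallen, so that only single genes are described. CDH1, E-cadherin, stood at 695, 703 and 783 CPM in siYT_XMU, against 219, 203 and 126 CPM in siC_XMU (1.99, SE 0.25, adjusted p = 0.000101). TWIST1, a mesenchymal transcription factor, fell (-3.11, SE 0.62, adjusted p = 0.0023), whereas SNAI1, a repressor of CDH1, rose with wide spread, at 7.01, 169 and 31.1 CPM in siYT_XMU, against 4.11, 3.33 and 3.76 CPM in siC_XMU (4.21, SE 0.87, adjusted p = 0.00291). ITGA5, the fibronectin receptor subunit, rose as well (1.74, SE 0.37, adjusted p = 0.00316). Luminal mammary markers also split, with 7 risen and 6 fallen of 15, with and without library c. KRT8 and KRT18, the paired keratins of simple epithelium, gave -2.01 (SE 0.30, adjusted p = 0.000303) and -1.88 (SE 0.26, adjusted p = 0.000201), while CD24, a surface glycoprotein, gave 3.04 (SE 0.31, adjusted p = 2.71e-05) and MUC1, a membrane mucin, 2.72 (SE 0.41, adjusted p = 0.000334).

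In Notch signalling 3 of 15 tested genes rose and 3 fell, with and without library c, shares close to the background of 17.7% risen and 18.6% fallen, so that only single genes are described. NOTCH3, a receptor, stood at 117, 87.7 and 143 CPM in siYT_XMU, against 0.521, 1.10 and 0.865 CPM in siC_XMU (7.12, SE 0.39, adjusted p = 9.6e-07). The target genes NRARP and HES1 gave 4.14 (SE 0.36, adjusted p = 1.07e-05) and 2.01 (SE 0.33, adjusted p = 0.000645), while HES4 gave -2.50 (SE 0.66, adjusted p = 0.0117). Of 17 tested Wnt ligands and targets 6 rose and 3 fell, and 7 rose and 3 fell without library c. The ligand WNT7B stood at 90.2, 137 and 144 CPM in siYT_XMU, against 8.22, 10.8 and 9.51 CPM in siC_XMU (3.71, SE 0.33, adjusted p = 1.24e-05). WNT9A (3.24, SE 0.51) and WNT4 (2.55, SE 0.51), also ligands, rose and the inhibitor DKK1 fell (-3.78, SE 0.61), with adjusted p of at most 0.00231.

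Immediate early genes, the first to respond to growth factor signals, rose in 15 of 24 tested cases and fell in 1, and rose in 14 and fell in 1 without library c. JUNB stood at 1403, 1160 and 808 CPM in siYT_XMU, against 84.1, 84.0 and 65.0 CPM in siC_XMU (3.85, SE 0.24, adjusted p = 1.5e-06). FOS, its partner in AP-1, stood at 224, 325 and 284 CPM in siYT_XMU, against 13.4, 9.36 and 5.58 CPM in siC_XMU (4.88, SE 0.40, adjusted p = 7.09e-06), and FOSB gave 4.95 (SE 0.50, adjusted p = 2.54e-05). IER3, an early gene of survival signalling, gave 3.42 (SE 0.23, adjusted p = 1.85e-06). The fallen member was BTG2. Among EGF receptors and ligands 6 of 12 rose and 1 fell, 5 of 13 rose and 1 fell without library c, and 0 fell without siC_XMU b, siYT_XMU a or siYT_XMU b. HBEGF, a ligand, stood at 1601, 1654 and 1499 CPM in siYT_XMU, against 73.8, 53.01 and 56.6 CPM in siC_XMU (4.70, SE 0.36, adjusted p = 4.64e-06). The receptors ERBB3 (2.95, SE 0.20, adjusted p = 1.95e-06) and ERBB2 (1.74, SE 0.20, adjusted p = 5.26e-05) rose too, as did the ligand TGFA (0.97, SE 0.17, adjusted p = 0.000835). The growth medium per the labels contains epidermal growth factor in all groups.

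ERK feedback genes gave 6 risen and 5 fallen of 19, 7 risen and 4 fallen without library c, and 3 fallen without siC_XMU c or without siYT_XMU b. Of the 7 tested DUSP phosphatases, which switch MAP kinases off, DUSP1, DUSP2, DUSP5 and DUSP7 rose, DUSP4 fell (-0.90, SE 0.32, adjusted p = 0.0473) and DUSP6 and DUSP10 did not pass; DUSP1, DUSP4, DUSP6 and DUSP10 are named after their values were seen. DUSP2 stood at 84.2, 83.6 and 36.9 CPM in siYT_XMU, against 0.461, 0.331 and 0.334 CPM in siC_XMU (7.51, SE 0.45, adjusted p = 1.25e-06). DUSP5 (2.42, SE 0.35) and DUSP7 (1.21, SE 0.19) rose by less, with adjusted p of at most 0.000511. Of 24 tested NF-kB and cytokine genes 10 rose and 3 fell, 11 of 25 rose and 3 fell without library c, and 1 fell without siC_XMU c or without siYT_XMU a. CXCL8, the chemokine interleukin 8, stood at 44.9, 67.98 and 92.6 CPM in siYT_XMU, against 3.07, 3.62 and 3.63 CPM in siC_XMU (4.31, SE 0.59, adjusted p = 0.000198). IL1RN, the interleukin 1 receptor antagonist, stood at 81.4, 111 and 114 CPM in siYT_XMU, against 1.18, 1.03 and 0.182 CPM in siC_XMU (7.01, SE 0.73, adjusted p = 3.07e-05). IL36RN, the antagonist of interleukin 36, was at 2.85, 2.36 and 4.77 CPM in siYT_XMU and at 0 in siC_XMU, at least 63.1-fold higher (adjusted p = 0.000146). NFKBIA, the inhibitor that NF-kB itself induces, gave 1.84 (SE 0.21, adjusted p = 5.76e-05). Of 22 tested type I interferon genes 17 did not pass, 2 rose and 3 fell, and 3 rose and 5 fell of 24 without library c, with 5 fallen also without siYT_XMU b. The full counts lie below the background of 17.7% risen and 18.6% fallen.

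**Figure D3:**
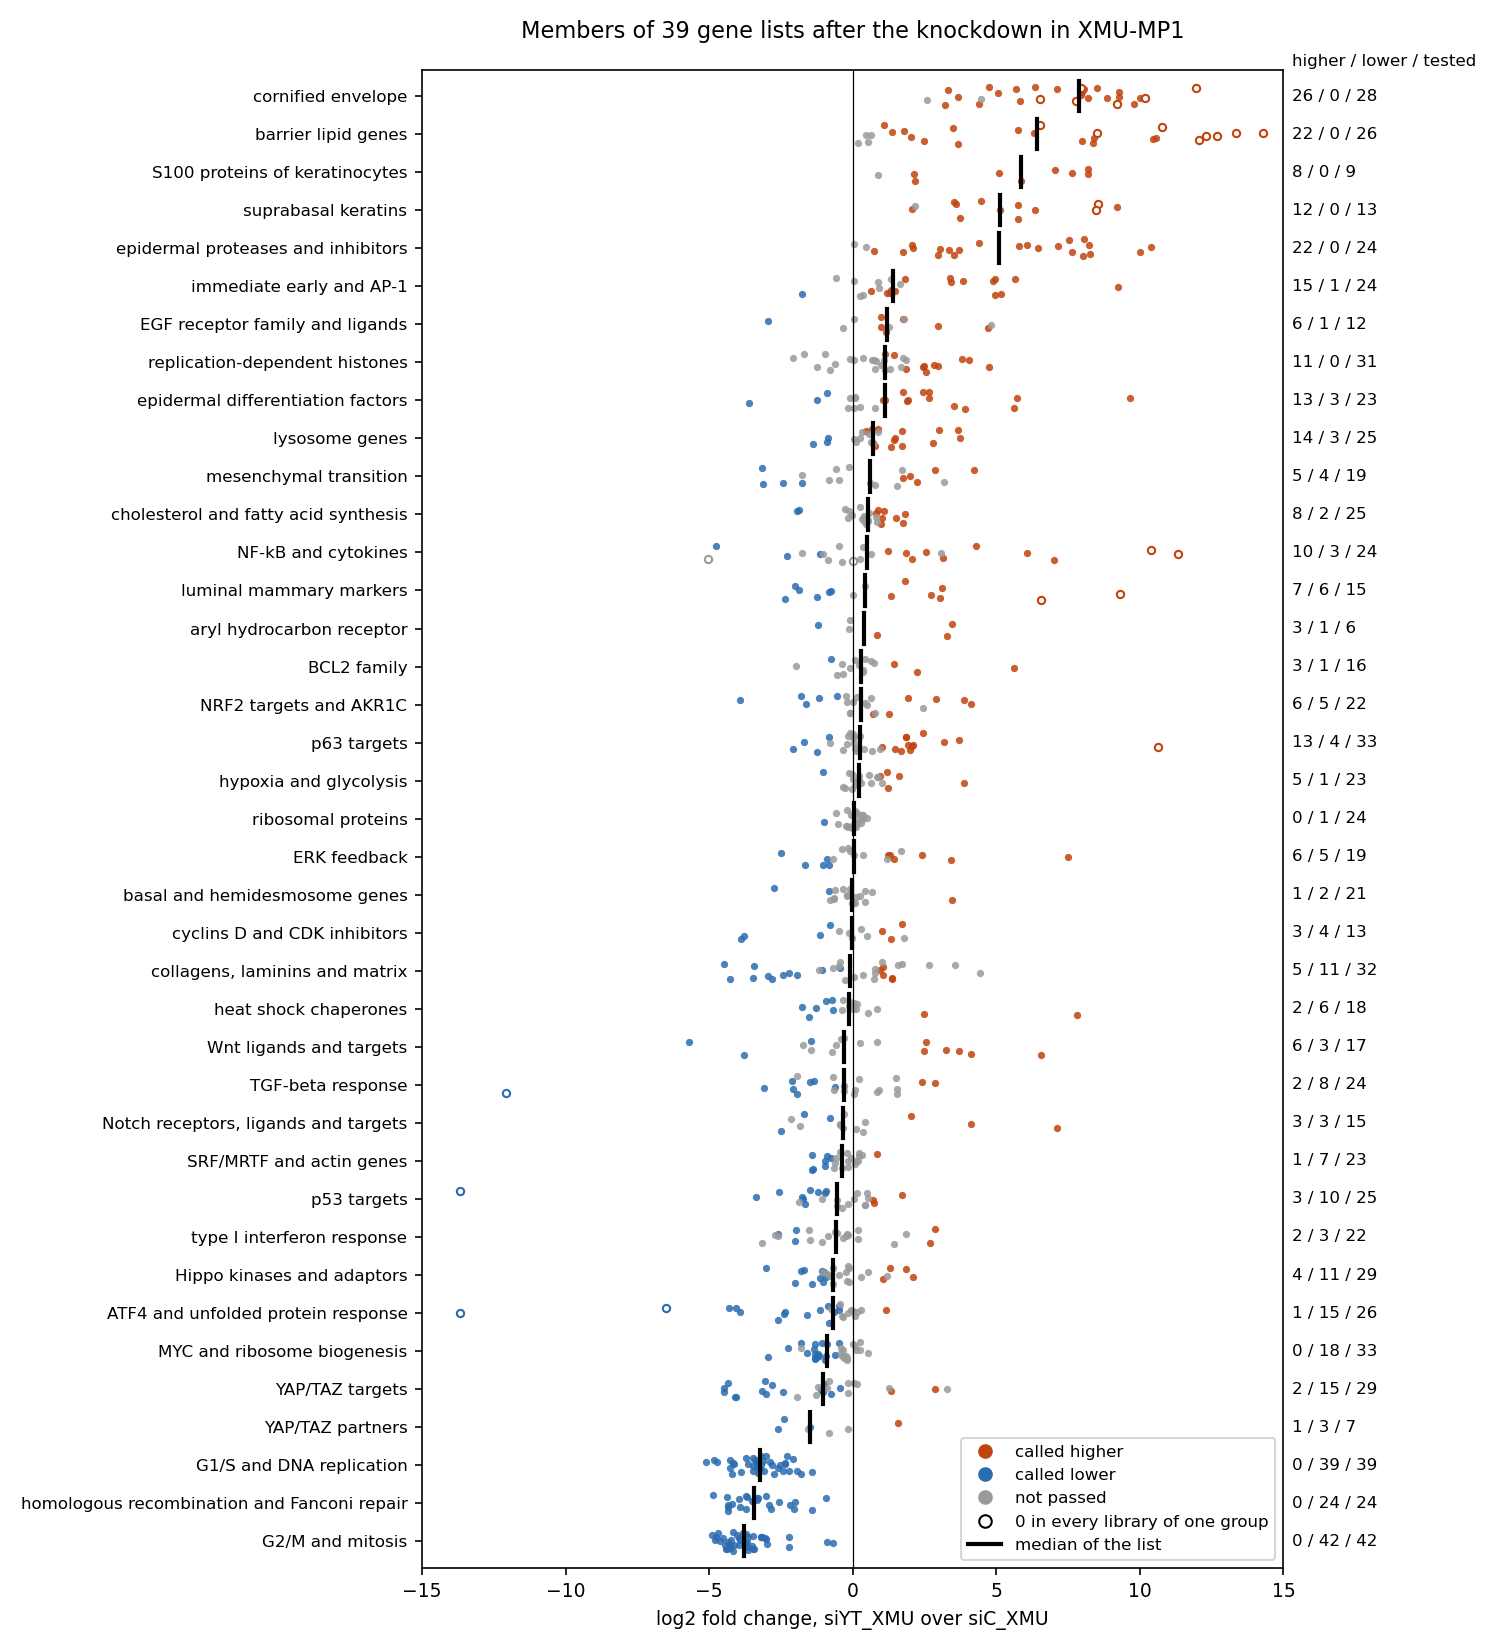
Fitted log2 fold change, siYT_XMU over siC_XMU, of every tested member of 39 gene lists, one dot a gene, called higher in red, called lower in blue and not passed in grey, with open dots for genes at 0 in every library of one group and a black bar for the list's median; the numbers at the right are members higher, lower and tested. The 5 epidermal lists lie at the top with fitted medians above 5 and the 3 cell cycle and repair lists at the bottom with medians below -3. With genes at 0 in a whole group set at their bound, the medians were 5.78 for cornified envelope and 4.90 for barrier lipid genes. That of suprabasal keratins was 4.03, while those of S100 proteins (5.87) and proteases and inhibitors (5.09) did not change.

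Among the remaining lists, p53 targets fell in 10 of 25 tested cases and rose in 3, fell in 9 and rose in 3 without library c, and rose in 1 without siC_XMU b or without siC_XMU c. CCNG1, cyclin G1, stood at 40.6, 25.9 and 30.5 CPM in siYT_XMU, against 360, 331 and 308 CPM in siC_XMU (-3.36, SE 0.19, adjusted p = 1.25e-06). The death receptors FAS (-2.56, SE 0.24) and TNFRSF10B (-1.48, SE 0.16) and the antiproliferative gene BTG2 (-1.77, SE 0.24) fell too, with adjusted p of at most 0.00018, whereas CDKN1A, also a p53 target, rose as given above. Lysosome genes rose in 14 of 25 cases and fell in 3, and rose in 18 and fell in 3 without library c. CTSD, the protease cathepsin D, stood at 4317, 6970 and 2385 CPM in siYT_XMU, against 565, 730 and 423 CPM in siC_XMU (2.99, SE 0.37, adjusted p = 9.09e-05), and CTSV, cathepsin V, gave 3.74 (SE 0.43, adjusted p = 6.36e-05). Genes of cholesterol and fatty acid synthesis rose in 8 of 25 cases (in 11 without library c, and in 5 without siC_XMU c or without siYT_XMU b) and fell in 2, with HMGCS1, an enzyme of cholesterol synthesis, at 1.83 (SE 0.25, adjusted p = 0.000178).

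Of 23 tested hypoxia and glycolysis genes 5 rose and 1 fell, and 10 rose and 1 fell without library c, while the full counts lie near or below the background. NDRG1, a stress and differentiation gene, stood at 2337, 1143 and 1712 CPM in siYT_XMU, against 100, 127 and 130 CPM in siC_XMU (3.86, SE 0.40, adjusted p = 3.07e-05), while the glycolytic enzyme GAPDH gave -1.03 (SE 0.22, adjusted p = 0.00372). NRF2 targets and aldo-keto reductases split into 6 risen and 5 fallen of 22 (7 and 5 without library c), against a background of 17.7 and 18.6%. AKR1C2, a reductase of steroids, gave 4.13 (SE 0.55, adjusted p = 0.000157) and TXNRD1, thioredoxin reductase, -1.79 (SE 0.22, adjusted p = 0.000107). Of 18 tested chaperones 6 fell and 2 rose, with and without library c. CRYAB, a small heat shock protein, stood at 53.7, 63.3 and 36.0 CPM in siYT_XMU, against 0.220, 0.279 and 0.182 CPM in siC_XMU (7.80, SE 0.60, adjusted p = 4.62e-06), and the mitochondrial chaperonin HSPD1 gave -1.28 (SE 0.14, adjusted p = 4.28e-05). CYP1A1 and CYP1B1, monooxygenases induced by the aryl hydrocarbon receptor, gave 3.28 (SE 0.43, adjusted p = 0.000149) and 3.46 (SE 0.39, adjusted p = 5.22e-05). BCL2 family genes mostly did not pass, with 12 of 16 short of the threshold, 3 risen and 1 fallen, shares near or below the background. Without library c 5 rose and 1 fell, 0 fell without siC_XMU a, siC_XMU b or siYT_XMU a, and 2 fell without siYT_XMU b. Ribosomal protein genes, with 23 of 24 not passed, had a median of 0.06, and 7 rose without library c, while 2 fell without siYT_XMU b.

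**Figure D4:**
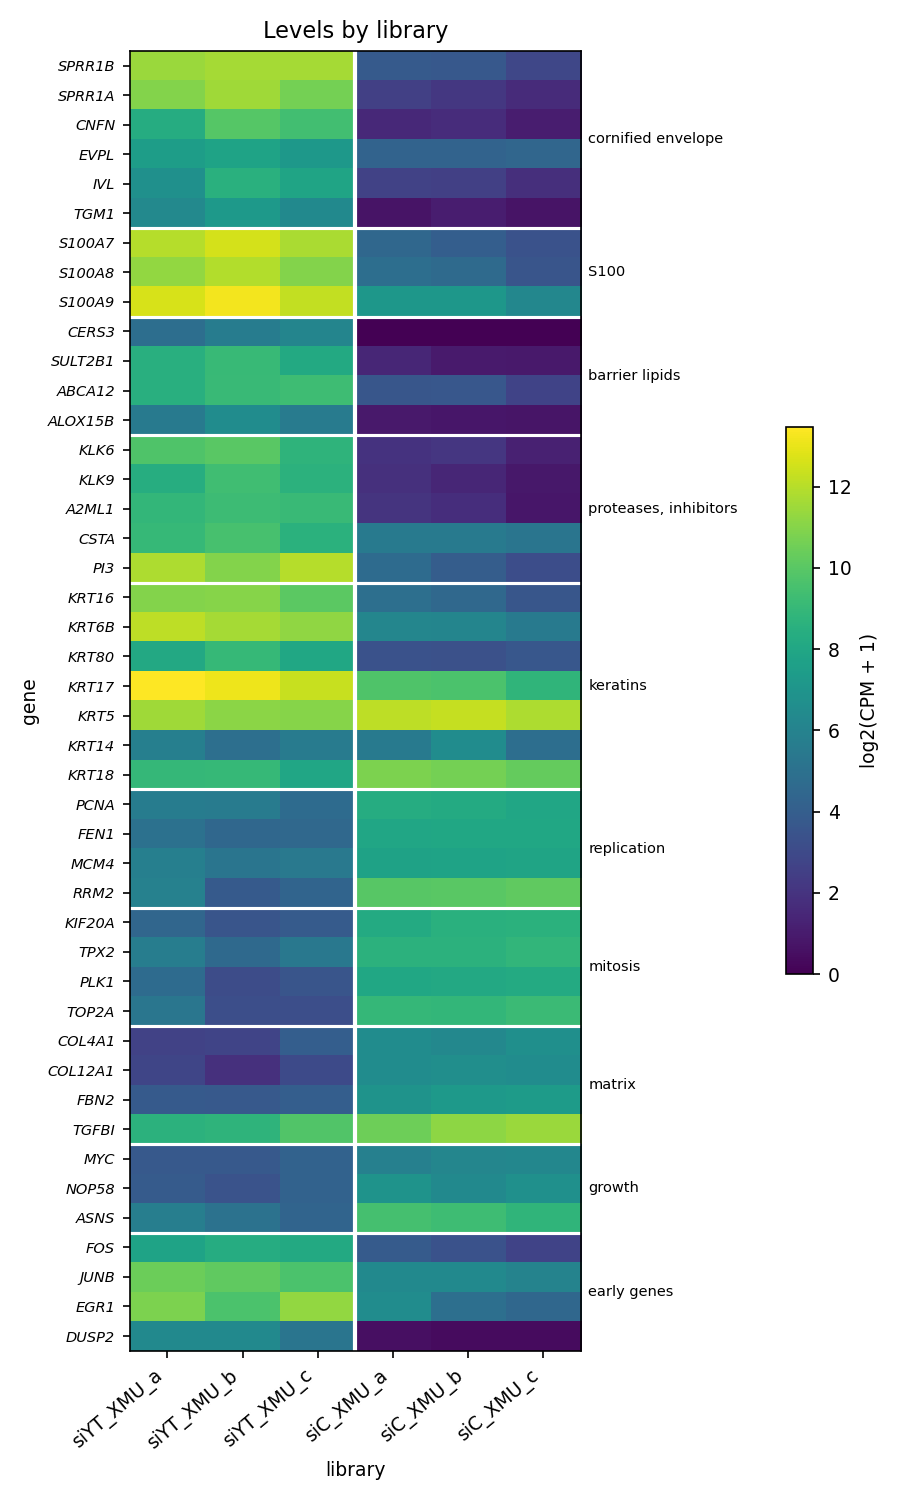
log2(CPM + 1) of genes from the groups described (down the page) in the 6 libraries (across), siYT_XMU a, b and c left of the white line and siC_XMU a, b and c right of it, with dark blue for low and yellow for high levels. Envelope, S100, lipid, protease and early genes are brighter in all siYT_XMU libraries, replication, mitosis, matrix and growth genes darker, and KRT14 does not separate the groups.

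The largest downward changes by the naming rule were of KCTD14, SMARCB1, KIFC1, WWTR1, LINC00052, LMO2, SFTA1P and RRM2. KCTD14, a potassium channel domain protein, was at 0 in every siYT_XMU library and at 11.99, 11.1 and 17.3 CPM in siC_XMU, at least 52.6-fold lower (adjusted p = 0.000998). LMO2, a LIM domain adaptor of transcription complexes, was at 0.675, 1.10 and 0 CPM in siYT_XMU, against 30.2, 24.9 and 27.4 CPM in siC_XMU (-5.24, SE 0.76, adjusted p = 0.000263). SMARCB1, a core part of SWI/SNF chromatin remodellers, was at 0, 0.0773 and 0 CPM in siYT_XMU and at 53.4, 55.4 and 48.4 CPM in siC_XMU (adjusted p = 0.00385). In siYT_DMSO the same gene was at 2.75, 48.6 and 0 CPM, so it switched between libraries of one group. KIFC1, a mitotic kinesin, was at 0.968, 0 and 0 CPM in siYT_XMU and at 53.3, 61.9 and 9.48 CPM in siC_XMU (adjusted p = 0.00368). Both calls were lost with voom and sample weights (adjusted p = 0.128 for SMARCB1 and 0.247 for KIFC1), and whether their reads went to another gene was not tested. The non-coding RNAs LINC00052 and SFTA1P were at 0 in libraries b and c of siYT_XMU and at no less than 7.68 CPM in siC_XMU.

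Setting the knockdown in XMU-MP1 beside the knockdown in DMSO shows how far the effects differed. These comparisons share no library. In DMSO 5826 genes were called (32.1%), of which 2929 rose (16.1%) and 2897 fell. Of these, 1888 also rose in XMU-MP1, which is 58.7% of the genes risen there and 64.5% of those risen in DMSO, and 2004 fell in both, 59.3 and 69.2%. Of the 6600 genes called in XMU-MP1, 5935 (89.9%) had the same sign in DMSO, and 85 were called in opposite directions. Of the lists, 26 cornified envelope genes rose in XMU-MP1 and 23 in DMSO, 42 and 41 of the 42 mitotic genes fell, and 15 and 20 of the 29 YAP and TAZ targets fell. WWTR1 gave -5.43 in XMU-MP1 and -2.96 in DMSO (adjusted p = 0.000511), with an interaction of -2.46 that did not pass (adjusted p = 0.0664), and CCN1 gave -2.44 and -5.03 (adjusted p = 8.04e-05) with an interaction of 2.60 (adjusted p = 0.0843).

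The interaction, the knockdown effect in XMU-MP1 minus that in DMSO, was called for 470 genes (2.59%), 156 above 0 (0.860%) and 314 below 0 (1.73%). This count depended on single libraries. It was 1006 (5.24%) without siYT_XMU c, 100 without siC_XMU b and 96 without siC_XMU c. For 283 of the 470 genes the 2 knockdown effects had opposite signs, and 84 were called in both with opposite signs.

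In the immediate early list 5 of 24 genes had an interaction above 0 and 0 below, against 0.860% and 1.73% of all genes. These were FOSB, FOSL1, JUNB, IER3 and NR4A1, of which FOSL1 is named after its values were seen. DUSP2 gave 7.51 in XMU-MP1 and 0.78 in DMSO (adjusted p = 0.107), an interaction of 6.73 (SE 0.53, adjusted p = 0.000578). CXCL8 gave 4.31 and -1.09 (interaction 5.40, SE 0.78, adjusted p = 0.00795). NR4A1, an orphan nuclear receptor of the early response, stood at 34.1, 200.2 and 25.1 CPM in siYT_XMU, against 3.07, 3.05 and 2.28 CPM in siC_XMU, and gave 4.96 in XMU-MP1 and -0.68 in DMSO (interaction 5.64, SE 1.09, adjusted p = 0.0255). PYGM, muscle glycogen phosphorylase, gave 5.00 and -2.21 (interaction 7.21, SE 1.14, adjusted p = 0.0117), and KRT80 5.14 and 1.44 (interaction 3.70, SE 0.41, adjusted p = 0.00389).

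Histone genes were on the other side, with 8 of 31 interactions below 0 and 0 above. H2BC4 gave 2.50 in XMU-MP1 and 5.59 in DMSO (adjusted p = 7.64e-07; interaction -3.09, SE 0.33, adjusted p = 0.00389), and H2BC5 1.44 and 4.79 (interaction -3.35, SE 0.52, adjusted p = 0.0108). The histone genes thus rose in both, by less in XMU-MP1. PLPP3, a phospholipid phosphatase, gave -1.64 in XMU-MP1 and 1.83 in DMSO (interaction -3.47, SE 0.54, adjusted p = 0.0116). NAB2, a repressor of EGR factors, gave -0.88 and 2.31 (interaction -3.20, SE 0.45, adjusted p = 0.00789), and its own call in XMU-MP1 (adjusted p = 0.0469) was lost without library c (adjusted p = 0.116). DLX3, a homeobox factor of the epidermis, gave 0.37 (adjusted p = 0.707) and 4.59 (adjusted p = 0.00063), an interaction of -4.21 (SE 0.98, adjusted p = 0.0444). IL17C, an epithelial cytokine, stood at 60.0, 48.4 and 43.5 CPM in siYT_XMU, against 0.742, 0.505 and 0.440 CPM in siC_XMU, and gave 6.50 in XMU-MP1 and 9.96 in DMSO (interaction -3.46, SE 0.78, adjusted p = 0.0404).

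**Figure D5:**
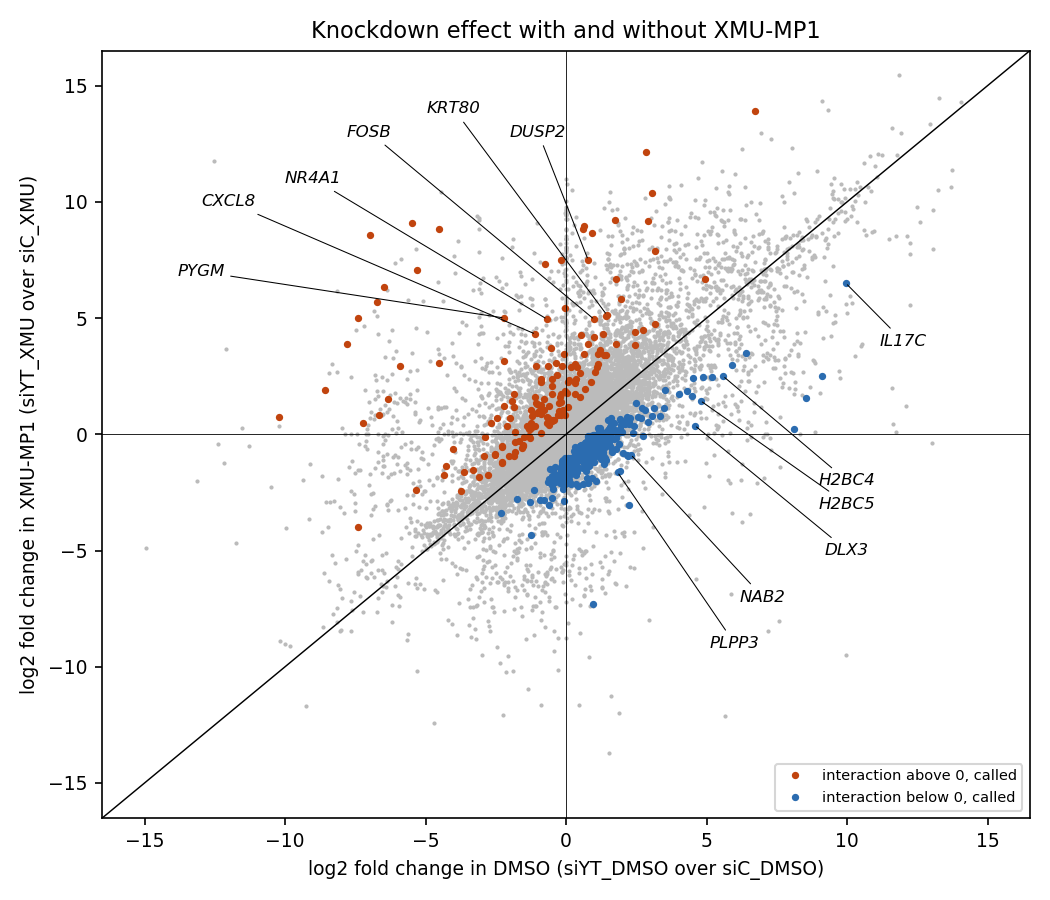
Log2 fold change of the knockdown in XMU-MP1 (vertical axis, siYT_XMU over siC_XMU) against that in DMSO (horizontal axis, siYT_DMSO over siC_DMSO), with a line of equal effects. Tested genes on assembled chromosomes are drawn, each symbol once. Called interactions above 0 are in red and below 0 in blue (156 and 314 over all 18143 tested genes, drawn or not). DUSP2, NR4A1, CXCL8, PYGM, FOSB and KRT80 lie above the line, and H2BC4, H2BC5, DLX3, NAB2, PLPP3 and IL17C below it.

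Markers of the labelled cell type were present in all 6 libraries, with none of 12 mammary epithelial markers at 0 throughout and a summed level of 11636 to 20028 CPM in siYT_XMU, against 8199 to 10285 CPM in siC_XMU. Of 14 leukocyte markers 5 could be tested, of which CD74, CD68, CD14 and ITGAM rose, and the summed level was 79.2 to 235 CPM in siYT_XMU, against 21.2 to 30.2 CPM in siC_XMU. CD3E and CD3D, which define T lymphocytes, were at 0 in all 6 libraries. PTPRC, which marks all leukocytes, was at 0, 0.541 and 5.59 CPM in siYT_XMU and at 0 in siC_XMU, and LYZ, lysozyme, at 0, 5.03 and 58.6 CPM in siYT_XMU, against 0.160, 0 and 0 CPM in siC_XMU, so both were highest in library c. Of 9 endothelial markers EMCN and ERG were at 0 throughout, and the summed level was 5.43 to 14.9 CPM in siYT_XMU, against 1.16 to 1.52 CPM in siC_XMU. Fibroblast markers summed to 26.4 to 142 CPM in siYT_XMU, with the highest sum in library c, against 34.3 to 50.4 CPM in siC_XMU. The part of these in the results was not tested.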

How the data were processed

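RNA was sequenced from 12 libraries of MCF10A cells as stranded, paired-end libraries of polyadenylated RNA, per the labels. The submitters' processing notes name cutadapt, FastQC, HISAT2, StringTie, edgeR (no version or setting named) and the build GRCh38.p13, and how reads were counted is not given in the sources used here. The deposited table holds whole-number counts per gene, per the file headers, and FPKM (fragments scaled by transcript length and library size), which the authors computed. The counts were used for all tests and levels, the deposited FPKM only in the rule for naming genes. Every column of the table was assigned to a library.

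The tests ran under R 4.3.3 in edgeR 4.0.16. filterByExpr kept 18143 genes. After TMM scaling, glmQLFit was run on the 12 libraries with 1 mean for each of the 4 groups (8 residual degrees of freedom, common dispersion 0.232). Contrasts were siYT_XMU minus siC_XMU, siYT_DMSO minus siC_DMSO and their difference, the interaction. Tests are two-sided, with Benjamini-Hochberg adjustment over all tested genes and a threshold of 0.05. SE is the size of the log2 fold change over the square root of F, and the prior count was 0.125. The model was tested on simulated data. CPM values carry TMM scaling, and floors are 3 counts per library and cover counting error only. TMM takes most genes as unchanged, and no spike-in was used. Depth ran from 8243351 to 60832492 counts in the 6 libraries compared.

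The 43 gene lists, the comparison and the gene clusters were chosen with earlier results of these data known. Lists are described by counts and medians, with no test of the list. Genes were named by a rule of 9 fixed genes, the 8 largest called changes each way (mean FPKM of at least 5, no overlap of libraries), the 5 largest called interactions each way, and, from each list with at least 3 called members, the 4 of smallest adjusted p. Some genes that the rule names are not reported here. Genes outside the rule are said to be named after their values were seen, apart from list markers at or near 0, KRT14 in a plot and PCNA, shown for its promoter. DESeq2 1.42.0 and limma 3.58.1 were used for alternatives. Promoters were read from RefSeq, and figures drawn with matplotlib 3.10.9.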

Additional observations from a re-analysis of the deposited data

Results flagged for a closer look

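The effect of the knockdown in XMU-MP1 differed from that in DMSO for 470 genes by edgeR's test of the difference itself. Of the genes named by the rule, 22 were among them, 11 of which were called in each of the 6 fits that leave out one library with XMU-MP1, and all 22 without siYT_XMU c. Interactions are on the log2 scale and above 0 where the fold change was higher in XMU-MP1.

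Above 0 were PYGM (7.21), DUSP2 (6.73), NR4A1 (5.64), CXCL8 (5.40), FOSB (3.95), KRT80 (3.70), PFKFB3 (2.70), CYP1B1 (2.33), CD14 (2.23), IER3 (2.06), JUNB (1.40) and CALD1 (0.89). PGLYRP4 (7.19) and IL36RN (7.34) were also above 0, but every siC_XMU library was at 0 for both, so these sizes depend on the prior count, and their calls held in 1 and 3 of the 6 fits. CCND1 (2.41), named after its values were seen, fell in DMSO and rose in XMU-MP1.

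Below 0 were DLX3 (-4.21), PLPP3 (-3.47), IL17C (-3.46), H2BC5 (-3.35), NAB2 (-3.20), H2BC4 (-3.09), H2BC21 (-2.92) and ARNT (-1.45). The calls of DLX3, IL17C, JUNB, CALD1, CYP1B1 and CD14 held in 2 of the 6 fits.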

How the results depend on the processing

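The counts of risen and fallen genes stayed within 1.5 times of 3219 and 3381 under every alternative run. Leaving out one library with XMU-MP1 at a time gave 2307 to 3710 risen, 2589 to 3602 fallen and 96 to 1006 genes with an interaction, lowest without siC_XMU c and highest without siYT_XMU c in each case. The interaction count was 1726 with DESeq2 and 1220 with voom and sample weights, against 470; the cause was not tested. At least 2-fold changes numbered 4984, whereas the stricter test against a fold of 2 (edgeR's glmTreat) called 2503. The labels do not say that letters pair libraries, and same-lettered libraries of the groups did not deviate together (r = 0.071, 0.043 and -0.009 for a, b and c). With the letters as a replicate block, 3032 genes rose, 3370 fell and 471 had an interaction, and none of the 183 named genes changed its call.

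Of the 183 named genes, none that was called in the main or the alternative fit changed sign between them. Under the alternatives other than glmTreat, 8 changed their call: LATS1, SMARCB1, KIFC1, NAB2, KRT5, IFIT2, BCL2A1 and BIK. A fit to the 5 libraries with XMU-MP1 other than siYT_XMU c, added after seeing the data, gave 3415 risen and 3139 fallen genes. The scalings moved the median of all genes by at most 0.09. Depth limits library c, where 4202 tested genes had 0 counts, against 1189 and 1023 in siYT_XMU a and b.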
